A study of Mus musculus with 22 samples.

Results

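The genes described here are 42 epithelial genes measured in mouse pancreatic tumours: keratins, tight junction proteins, adhesion and desmosome proteins, epithelial transcription and splicing factors, surface proteases with their inhibitors, and surface, secreted and trafficking proteins. They were taken from a list of 43 gene names grouped by identity, which was chosen with earlier results of these data known. Of these names 42 are among the 17966 genes of the deposited table, and Lgals4 is not analysed here. Shares of all genes set beside counts of the 42 are therefore description and no test of an unselected list. All 42 passed the filter on low values, a normalized count of at least 10 in at least 5 tumours, as did 14278 genes in all. Bulk RNA from 22 orthotopic tumours was profiled by sequencing the 3' ends of mRNA, at 6.33 to 21.2 M reads per tumour. The tumours grew from PDA.7940B, a polyclonal line of pancreatic ductal adenocarcinoma from KPC mice, a genetic model of this cancer; the labels give the genotype as WT. Untreated tumours (n = 5, numbered 1, 2, 3, 5 and 6) were compared with tumours given 1 intravenous dose of 1.2 mg of beta-glucan (n = 6), tumours given 1 intraperitoneal dose of 0.1 mg of the CD40 antibody FGK45 (n = 6), and tumours given both (n = 5), for which the labels state no doses. Treated tumours were taken 10 days after treatment. Sequencing depth was not even across the groups. The shallowest combination library held 12.2 M reads, more than the deepest untreated library (9.34 M) and the deepest beta-glucan library (8.74 M). Depth under anti-CD40 spread over the whole range of 6.33 to 21.2 M. Depth therefore goes with treatment where the combination is compared with untreated or beta-glucan tumours, and its part in those differences was not tested. Age, sex and strain are not given in the sources used. Whether every tumour had its own host is not labelled either, so the tests read the spread among samples, which may in part be technical.

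Epithelial cells hold to one another through tight junctions, which seal the space between cells, adherens junctions built on E-cadherin, and desmosomes, which anchor keratin filaments. Keratins of simple epithelia, such as the Krt8 and Krt18 pair and the ductal keratins Krt7 and Krt19, mark the duct-like cells of pancreatic adenocarcinoma. Grainyhead-like, Ovo-like, Krüppel-like and ETS transcription factors and the Esrp splicing regulators maintain the epithelial state, and repressors of the Snail and Zeb families bind the sequence CACCTG in epithelial promoters such as that of Cdh1. Beta-glucan, a glucose polymer of fungal cell walls, binds Dectin-1 on myeloid cells, and anti-CD40 activates antigen-presenting cells.

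Most of these genes had lower estimates in treated than in untreated tumours, and the median difference was largest in tumours given both agents. With beta-glucan 6 of the 42 fell (1.32% of all genes tested fell) and 0 rose (5.09%), with limma and an adjusted p under 0.05 (20 were lower and 0 higher at an unadjusted p under 0.05; edgeR called 0 and DESeq2 0 higher). Calls in either direction came to 6.42% of all genes with beta-glucan, 18.6% with anti-CD40 and 34% with the combination. With anti-CD40 14 fell (7.56%) and 0 rose (11%; 0 were higher at an unadjusted p under 0.05, and edgeR called 0 and DESeq2 1 higher). With the combination 26 fell (15.8%) and 1, Spint1, rose (18.2%). The median log2 fold change of the 42 genes was -0.97 with beta-glucan, -1.14 with anti-CD40 and -1.96 with the combination, beside medians of 0.02, 0.00 and -0.01 over all genes tested. These 3 comparisons share the untreated tumours. Of the 42 genes, 12 lay below every untreated tumour in all beta-glucan tumours (2.87% of all genes), 8 in all anti-CD40 tumours (4.08%) and 21 in all combination tumours (10.3%), and Spint1 lay above every untreated tumour in all combination tumours (11.7%). None of the 42 lay above in all beta-glucan (3.98%) or all anti-CD40 tumours (5.03%). In bulk tissue, fewer epithelial cells and less RNA per epithelial cell cannot be told apart.

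**Figure D1:**
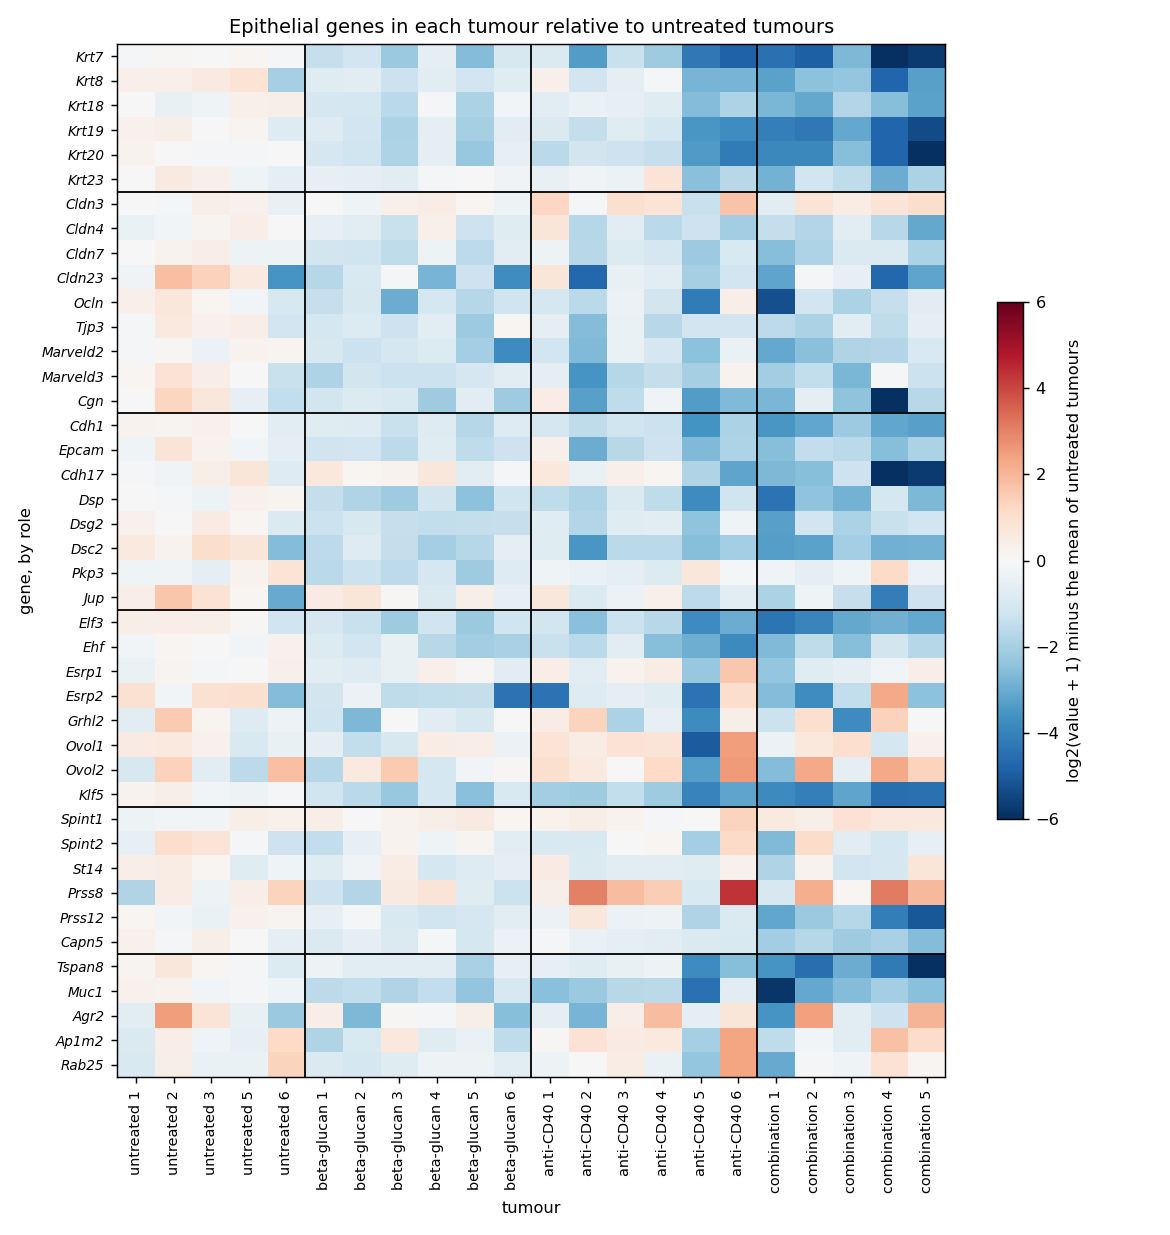
Each cell is the log2(normalized count + 1) of 1 gene in 1 tumour minus the mean of that gene over the 5 untreated tumours; rows are the 42 genes in order of role, columns the 22 tumours in 4 treatment groups, black lines separate roles and groups, and blue is lower and red higher than untreated. All keratin rows are blue in the 5 combination tumours, as are those of Klf5 and Tspan8. Spint1, Cldn3 and Prss8 are near or above the untreated mean in several treated tumours.

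Summed, the 42 genes took 0.454 to 0.916% of reads in untreated tumours, 0.211 to 0.478% with beta-glucan, 0.0494 to 0.471% with anti-CD40 and 0.0649 to 0.139% with the combination. Every combination tumour therefore lay below every untreated and every beta-glucan tumour, whereas the anti-CD40 tumours overlapped both of these groups in this share. Other cell types moved with the groups. The 8 acinar genes took 0.00508 to 7.72% of reads in untreated tumours, 0.239 to 7.11% with beta-glucan, 0.259 to 22.5% with anti-CD40 and 0.216 to 13.7% with the combination, and 0, 3 and 4 of the 7 tested rose with the 3 treatments. Amy2a5, an amylase, was at 0 in 20 of 22 tumours and Prss1, a trypsinogen, in 7. Of 8 leukocyte genes tested 6, 6 and 8 rose, of 8 fibroblast genes 6, 3 and 8, of 7 endothelial genes 1, 3 and 5, and of 8 islet genes 1, 7 and 6; Cd79a, a B cell gene, was at 0 in 20 tumours. Of 3 mesothelial genes tested 1, 2 and 2 rose; Bnc1 was at 0 in 14 tumours, and Msln, which mesothelium shares with pancreatic adenocarcinoma cells, fell with the combination (log2 fold change -4.70 ± 0.80, SE). The acinar list took over 10% of reads in anti-CD40 tumours 2, 3 and 6 and combination tumours 4 and 5. Without these 5 tumours, a comparison added after the data were seen, 8, 12 and 26 of the 42 genes were called with the 3 treatments, and with the acinar level in the model 6, 8 and 23. The shares of all genes called in these fits are not given here. The part of the leukocyte, fibroblast, endothelial, islet and mesothelial levels in the differences was not tested.

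**Figure D2:**
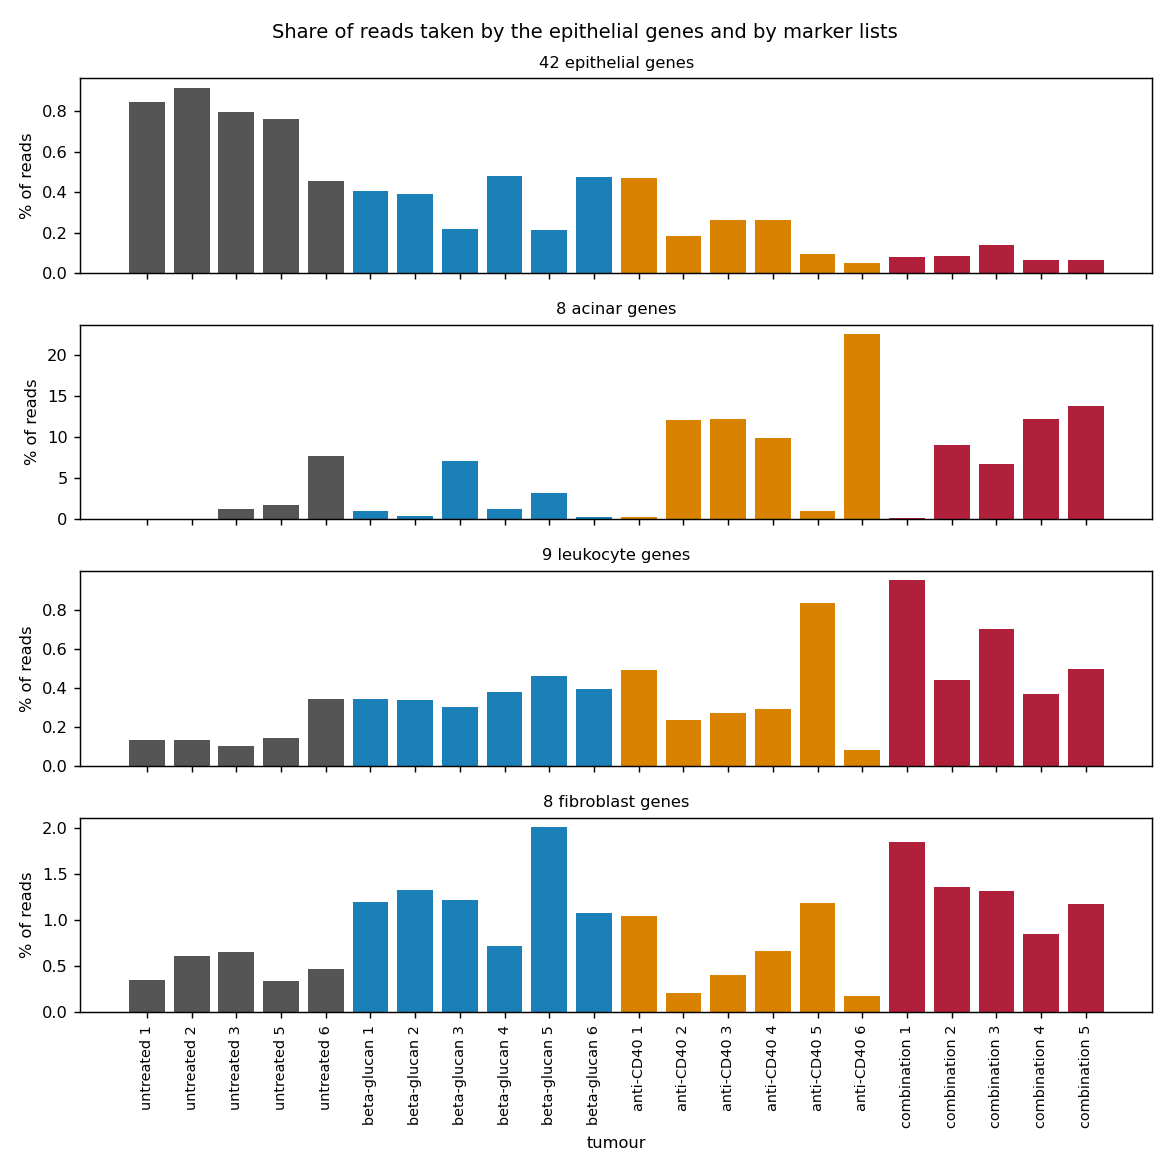
Bars give the percentage of a tumour's reads taken by the 42 epithelial genes and by the acinar, leukocyte and fibroblast marker lists, for each of 22 tumours coloured by group (grey untreated, blue beta-glucan, orange anti-CD40, red combination). The 42 genes stand highest in untreated tumours and lie at 0.0649 to 0.139% in the combination tumours; acinar reads vary within each group and reach 22.5% in anti-CD40 tumour 6.

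Promoter sequence was read for those members with an entry in the RefSeq promoter table (GRCm38.p6), which gives 250 bases before to 50 after each start. Of the 42 members 25 had 1 or more windows, 29 in all. The E-box CACCTG, searched on both strands, was in a window of 17 of the 25 genes (68%), beside 22.6% of 27025 genes with a window. Member windows had a median GC content of 60.7% and all windows 52.7%, so base composition differs between the sets. The grainyhead-like motif AACCNGGTT was in 0 of the 29 windows (0.271% of 32851 windows), and the ETS motif CCGGAAGT in 2, those of Spint1 and Cldn7 (3.89%). Both were searched on both strands, and neither contains CACCTG. The E-box was in 13 of 17 genes with a window that fell with the combination and in 4 of 8 that did not. The 250 bases before the start are shown for Krt7, Krt18, Elf3 and Muc1, which fell and hold the E-box, for Krt20, which fell and holds none, and for Ap1m2, which holds 4 and was not called; capitals mark CACCTG or its reverse complement.
Krt7 (chr15:101412153-101412402, plus strand): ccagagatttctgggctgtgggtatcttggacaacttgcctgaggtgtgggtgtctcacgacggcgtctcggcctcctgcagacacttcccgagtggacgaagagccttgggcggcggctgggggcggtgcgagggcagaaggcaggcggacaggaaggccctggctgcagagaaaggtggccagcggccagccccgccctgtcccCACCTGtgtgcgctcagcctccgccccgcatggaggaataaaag
Krt18 (chr15:102027966-102028215, plus strand): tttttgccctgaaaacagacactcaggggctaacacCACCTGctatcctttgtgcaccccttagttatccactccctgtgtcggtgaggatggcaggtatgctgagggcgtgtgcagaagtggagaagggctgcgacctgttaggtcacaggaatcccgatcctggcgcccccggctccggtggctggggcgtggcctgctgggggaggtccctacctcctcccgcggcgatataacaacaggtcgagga
Elf3 (chr1:135258473-135258722, minus strand): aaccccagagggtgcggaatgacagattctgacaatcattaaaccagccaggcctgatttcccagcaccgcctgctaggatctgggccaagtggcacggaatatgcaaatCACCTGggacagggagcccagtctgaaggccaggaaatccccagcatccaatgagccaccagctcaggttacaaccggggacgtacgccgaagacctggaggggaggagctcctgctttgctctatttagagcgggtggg
Muc1 (chr3:89228806-89229055, plus strand): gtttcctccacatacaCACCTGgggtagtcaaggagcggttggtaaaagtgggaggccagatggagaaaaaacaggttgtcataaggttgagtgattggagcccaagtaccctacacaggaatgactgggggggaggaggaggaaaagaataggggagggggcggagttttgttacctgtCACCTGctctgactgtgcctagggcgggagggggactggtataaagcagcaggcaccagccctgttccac
Krt20 (chr11:99438154-99438403, minus strand): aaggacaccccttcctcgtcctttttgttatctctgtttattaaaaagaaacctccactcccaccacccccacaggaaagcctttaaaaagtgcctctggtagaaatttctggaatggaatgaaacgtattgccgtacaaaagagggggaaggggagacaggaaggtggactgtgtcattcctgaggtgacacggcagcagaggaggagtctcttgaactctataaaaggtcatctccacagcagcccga
Ap1m2 (chr9:21312334-21312583, minus strand): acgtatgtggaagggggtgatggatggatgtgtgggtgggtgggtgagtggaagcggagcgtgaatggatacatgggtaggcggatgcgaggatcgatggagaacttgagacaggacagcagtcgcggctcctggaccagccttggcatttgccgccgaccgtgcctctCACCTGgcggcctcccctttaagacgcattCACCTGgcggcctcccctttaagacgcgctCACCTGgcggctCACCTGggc
A match is a string of letters and no evidence that a factor bound there in these tumours.

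All 6 keratins were lower in every combination tumour than in any untreated tumour. Krt7, a type II keratin of ductal epithelium (chr15:101411043-101430313, plus strand), had normalized counts of 5356, 6085, 5993, 6357 and 5566 in untreated tumours 1, 2, 3, 5 and 6. It was at 954 to 3888 (median 2415) with beta-glucan, 204 to 3226 (median 965) with anti-CD40, and 263, 192, 910.4, 50.5 and 109 in combination tumours 1 to 5. No treated tumour of any group reached the untreated range. Krt7 fell 30.5-fold with the combination (log2 -4.93 ± 0.72, adjusted p = 2.81e-05) and 6.94-fold with anti-CD40 (log2 -2.80 ± 0.69, adjusted p = 0.0074); with beta-glucan its log2 fold change was -1.5 ± 0.69 (adjusted p = 0.239).

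Krt19, the type I ductal keratin (chr11:100140810-100148665, minus strand), was at 6008, 6328, 5083, 5657 and 2918 in the untreated tumours and at 293, 259, 606, 183 and 120.3 with the combination. Beta-glucan tumours held 1268 to 3446 (median 2594) and anti-CD40 tumours 383 to 3014 (median 2134). Untreated tumour 6 was low among its group and overlapped both single treatments, and no combination tumour overlapped any untreated tumour. Krt19 fell 19.8-fold with the combination (log2 -4.31 ± 0.54, adjusted p = 3.46e-06) and 3.69-fold with anti-CD40 (log2 -1.88 ± 0.51, adjusted p = 0.013). Krt20, a keratin of gastrointestinal epithelium and urothelium, was at 4686, 4094, 3781, 3694 and 3922 untreated, 830.2 to 2897 (median 1857) with beta-glucan, 217 to 1869.8 (median 1405) with anti-CD40 and 277, 272, 673, 149 and 57.2 with the combination. Its groups did not overlap the untreated group, and it fell under both anti-CD40 (log2 -2.17 ± 0.57, adjusted p = 0.0106) and the combination (log2 -4.23 ± 0.59, adjusted p = 1.52e-05).

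Krt8 and Krt18 pair to form the filaments of simple epithelia. Krt8 was at 1862, 1855, 2238, 2692 and 387 untreated and 165, 276, 303, 55.8 and 157 with the combination, with 611 to 952 (median 911) in beta-glucan and 217 to 1850.0 (median 863) in anti-CD40 tumours. Untreated tumour 6 held the lowest untreated value, below every beta-glucan tumour, and the name Krt8-ps in the annotation marks a pseudogene copy that reads could be shared with. Krt18 was at 9935, 7281, 8123, 12177 and 12345 untreated and 1446, 1159, 2898, 1648 and 1059 with the combination, with 2647 to 9282 (median 4753) and 1604 to 7476 (median 5989.6) under the single agents. Krt18 fell 6.36-fold and Krt8 9.16-fold with the combination (adjusted p = 1.99e-05 and 0.000296), and Krt18 also fell with anti-CD40 (log2 -1.12 ± 0.38, adjusted p = 0.0422). Krt23, a type I keratin, had the smallest keratin fall with the combination, log2 -2.07 ± 0.44 (adjusted p = 0.000869), from 456, 657, 562, 381 and 317 to 63.0, 209.5, 158, 57.1 and 124; it stood at 289 to 465 (median 363) with beta-glucan and 79.4 to 795 (median 348) with anti-CD40. In all, 0 of 6 keratins were called with beta-glucan by limma and 4 with anti-CD40. Of 7 acinar genes tested 3 also rose with anti-CD40, and with the acinar level in the model all 4 anti-CD40 calls were lost (Krt7 log2 -2.03, adjusted p = 0.106; adjusted p = 0.175 for Krt18, 0.191 for Krt19 and 0.131 for Krt20). The anti-CD40 call of Krt18 did not hold without untreated tumour 1, 3, 5 or 6 or anti-CD40 tumour 5 or 6 (adjusted p up to 0.107). It was also lost with edgeR (adjusted p = 0.0758) and in a limma fit of the 2 groups alone (0.0605). Without the tumours of over 10% acinar reads its adjusted p was 0.0512.

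**Figure D3:**
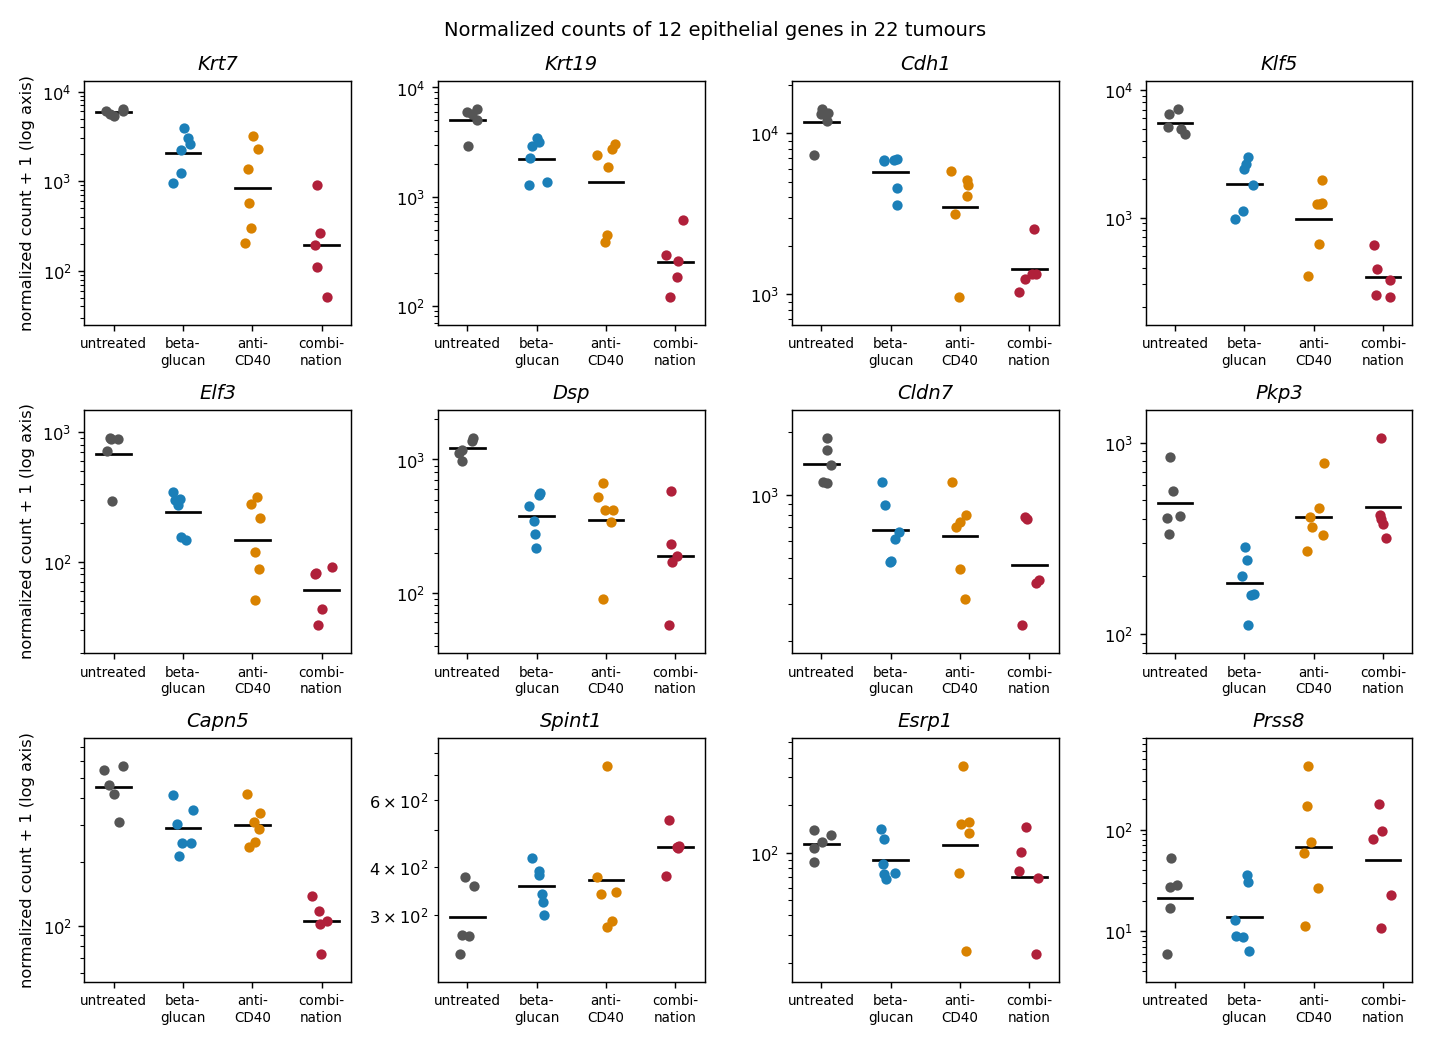
Points are the normalized counts plus 1 of 12 of the genes in each tumour, on a log axis, by group (grey untreated, blue beta-glucan, orange anti-CD40, red combination); black lines are the group means of log2(value + 1). Krt7, Krt19, Cdh1, Klf5, Elf3 and Capn5 have their lowest means in the combination tumours, though the lowest point of Cdh1 is anti-CD40 tumour 5. Pkp3 has its lowest mean in the beta-glucan tumours, Spint1 is highest in the combination by its mean, and Esrp1 and Prss8 spread widely within groups.

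Of the 9 tight junction genes 7 fell with the combination and 1, Cldn7, with each single agent. Cldn7, a claudin of the lateral membrane (chr11:69964779-69967885, plus strand), was at 1388, 1643, 1878, 1132 and 1148 in untreated and 236, 389.8, 762, 779.7 and 378 in combination tumours. It was at 474 to 1144 (median 637) with beta-glucan and 315 to 1149.5 (median 718) with anti-CD40. The highest tumour of each single agent reached into the untreated range, and no combination tumour did. Its log2 fold change was -1.06 ± 0.32 with beta-glucan (adjusted p = 0.0482), -1.15 ± 0.32 with anti-CD40 (adjusted p = 0.0137) and, for both agents together, -1.61 ± 0.34 (adjusted p = 0.000635). The beta-glucan call was lost in 8 of 11 fits that left out 1 tumour (untreated 1, 2, 3 or 5, or beta-glucan 1, 2, 3 or 5), with adjusted p up to 0.131, and with equal totals (0.276). With the acinar level in the model both single-agent calls were lost (adjusted p = 0.0688 with beta-glucan and 0.0842 with anti-CD40). The beta-glucan call was also lost with edgeR (0.0644), with no filter (0.0559) and without the tumours of over 10% acinar reads (0.0517).

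Cgn, which encodes the cytoplasmic plaque protein cingulin, fell with the combination (log2 -2.70 ± 0.84). So did occludin, Ocln (-2.07 ± 0.75), and Marveld2, the tricellulin of tricellular corners (-2.01 ± 0.54). Cldn4 (-1.72 ± 0.44), Marveld3 (-1.53 ± 0.57) and Tjp3, the scaffold ZO-3 (-1.25 ± 0.48), fell as well. Adjusted p ran from 0.00427 for Cldn4 to 0.0473 for Tjp3. With the acinar level in the model the calls of Cgn (adjusted p = 0.118), Cldn4 (0.0788), Tjp3 (0.341) and Marveld3 (0.15) were lost, and that of Cgn also without the tumours of over 10% acinar reads (0.0702). The calls of Ocln, Tjp3 and Marveld3 were each lost when any of untreated tumours 1, 2, 3 and 5 was left out, and when combination 1 or 3 (Ocln), combination 1, 2 or 4 (Tjp3) or combination 1, 2, 3 or 5 (Marveld3) was, with adjusted p up to 0.124, 0.112 and 0.114. Tjp3 overlaps Apba3 on the other strand, and whether the authors counted by strand is not stated in the sources used. Marveld2 lay below every untreated tumour in all tumours of the 3 treated groups, at 8.62 to 74.1 (median 59.6) with beta-glucan and 20.3 to 102 (median 61.8) with anti-CD40 against 123, 139.8, 102, 155 and 149 untreated; its adjusted p was 0.0566 and 0.0701. Cldn3 and Cldn23 were not called. Cldn3, another claudin, stood above untreated in its estimates with anti-CD40 (log2 0.55 ± 0.41, adjusted p = 0.385) and the combination (0.47 ± 0.43, adjusted p = 0.43); its values were 68.2, 64.7, 87.7, 83.6 and 50.1 untreated, 55.6 to 95.0 (median 72.5) with beta-glucan, 26.7 to 234 (median 129) with anti-CD40 and 42.4, 121, 95.0, 119.5 and 144 with the combination. With values rescaled to equal totals the anti-CD40 estimate was -0.03, and with the acinar level in the model the combination estimate was -0.02.

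Of the 8 adhesion and desmosome genes 6 fell with the combination, 5 with anti-CD40 and 3 with beta-glucan. Cdh1, which encodes E-cadherin (chr8:106603351-106670246, plus strand), was at 13341, 13226, 14139, 11902 and 7387 in untreated and 1035, 1346, 2553, 1347 and 1242 in combination tumours. Beta-glucan tumours held 3572 to 6974 (median 6786) and anti-CD40 tumours 967 to 5879.6 (median 4424). All 17 treated tumours lay below the lowest untreated tumour. Cdh1 fell 8.19-fold with the combination (log2 -3.03 ± 0.36, adjusted p = 1.2e-06) and 3.36-fold with anti-CD40 (log2 -1.75 ± 0.34, adjusted p = 0.00092), and with beta-glucan its log2 fold change was -1.03 ± 0.34 (adjusted p = 0.0785). Epcam, the epithelial cell adhesion molecule, was at 1062, 2202, 1499, 1135 and 846 untreated, 434 to 759 (median 548) with beta-glucan, 163 to 1583 (median 377) with anti-CD40 and 216, 452, 414, 218 and 346 with the combination. Anti-CD40 tumour 1 was above 4 of the 5 untreated tumours. Epcam fell under anti-CD40 (log2 -1.67 ± 0.40) and the combination (-2.02 ± 0.42); without the 5 tumours of over 10% acinar reads its anti-CD40 adjusted p was 0.0829, and with the acinar level in the model 0.0892.

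The desmosomal genes did not move alike. Dsp, desmoplakin, which ties the desmosome to keratin, was at 1185, 1126, 974, 1458 and 1367 untreated, 216 to 557 (median 395) with beta-glucan, 88.1 to 661 (median 419) with anti-CD40 and 56.0, 229, 170.1, 574 and 187 with the combination, with no treated tumour in the untreated range. It fell with all 3 treatments, at log2 -1.69 ± 0.47, -1.79 ± 0.47 and -2.68 ± 0.49 (adjusted p = 0.0306, 0.00941 and 0.000195). The desmosomal cadherin Dsg2 also fell with all 3 (-1.33 ± 0.36, -1.09 ± 0.36 and -1.74 ± 0.38), and its partner Dsc2 with anti-CD40 (-2.0 ± 0.55) and the combination (-2.86 ± 0.57). The beta-glucan calls of Dsp and Dsg2 were lost when untreated 1, 2 or 5 or beta-glucan 3 or 5 was left out (also untreated 6 or beta-glucan 2 for Dsp and untreated 3 for Dsg2), with adjusted p up to 0.0873 and 0.0754. The anti-CD40 call of Dsg2 was lost without untreated 1, 2, 3 or 5 or anti-CD40 2 or 5 (up to 0.0986). With equal totals the beta-glucan call of Dsg2 was lost (adjusted p = 0.0945). The anti-CD40 call of Dsc2 was lost with the acinar level in the model (adjusted p = 0.185) and without the tumours of over 10% acinar reads (0.09).

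Pkp3, plakophilin 3, a plaque protein that clusters desmosomal cadherins (chr7:141078218-141090510, plus strand), was called with beta-glucan and not with the other treatments, as no other gene of the 42 was. It was at 404, 414, 329.9, 560.2 and 844 in untreated tumours 1, 2, 3, 5 and 6 and at 110.2 to 285 (median 180.2) in beta-glucan tumours, all 6 below the untreated range. Anti-CD40 tumours held 270.2 to 780.2 (median 384) and combination tumours 416, 318, 397, 1060.0 and 376, overlapping the untreated values. Pkp3 fell with beta-glucan (log2 -1.39 ± 0.31, adjusted p = 0.00751) and was at log2 -0.24 ± 0.31 with anti-CD40 and -0.06 ± 0.33 with the combination (adjusted p = 0.649 and 0.902). Compared directly, it was higher with the combination than with beta-glucan (1.32 ± 0.31, adjusted p = 0.0066) and higher with anti-CD40 than with beta-glucan (1.15 ± 0.30, adjusted p = 0.0423). The last call was lost without any of beta-glucan tumours 1 to 5 or anti-CD40 tumours 1, 2, 5 and 6 (adjusted p up to 0.112), and without the tumours of over 10% acinar reads the former had an adjusted p of 0.0723. With equal totals the beta-glucan call was lost too (log2 -1.34, adjusted p = 0.0836). So were the calls against beta-glucan of the combination (0.184) and of anti-CD40 (0.318). The former was also lost with the level of other epithelial genes in the model (0.259). The latter was also lost with edgeR (0.0596), with the acinar level in the model (0.111) and without the tumours of over 10% acinar reads (0.0769). Cdh17, liver-intestine cadherin, fell with the combination, from 395, 362, 544, 691 and 245 to 64.3, 70.7, 176, 0 and 6.79 (log2 -4.20 ± 1.01, adjusted p = 0.00317), a fold that depends on the pseudocount because combination tumour 4 had no read. Jup, plakoglobin, was not called (combination log2 -1.79 ± 0.73, adjusted p = 0.0637) and ranged from 58.9 to 1558 among untreated tumours.

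Of the 8 transcription and splicing genes 3 fell with the combination, Klf5, Elf3 and Ehf. Klf5, a Krüppel-like factor of proliferating epithelium (chr14:99298691-99315036, plus strand), was at 6478, 7091, 4921, 4517 and 5162 in untreated and 394, 322, 614, 239 and 246 in combination tumours. It was at 980.2 to 2988 (median 2116) with beta-glucan and 345 to 1964 (median 1273) with anti-CD40, so that no treated tumour reached the lowest untreated one. Klf5 fell 3.02-fold with beta-glucan (log2 -1.59 ± 0.37, adjusted p = 0.00938), 5.65-fold with anti-CD40 (-2.50 ± 0.37, adjusted p = 4.71e-05) and 16.3-fold under the combination (-4.02 ± 0.38, adjusted p = 7.81e-08). With equal totals the beta-glucan call of Klf5 was lost (log2 -1.55, adjusted p = 0.134). Elf3, an ETS factor of epithelium, was at 883, 905, 880.1, 708 and 296 untreated, 146 to 344 (median 287) with beta-glucan, 49.5 to 313 (median 168) with anti-CD40 and 31.5, 42.6, 79.2, 90.3 and 81.5 with the combination. Untreated tumour 6 lay within the range of both single agents, and above every combination tumour. Elf3 fell with all 3 treatments, at log2 -1.5 ± 0.42, -2.21 ± 0.42 and -3.48 ± 0.44 (adjusted p = 0.0327, 0.000634 and 2.31e-06); the beta-glucan call was lost without untreated 1, 2, 3 or 5 or beta-glucan 3 or 5 (up to 0.0945), with equal totals (0.209) and with the acinar level in the model (0.058). The related ETS factor Ehf fell under anti-CD40 (log2 -2.15 ± 0.43) and the combination (-1.91 ± 0.45). It was below every untreated tumour in all 17 treated tumours, and its beta-glucan adjusted p was 0.0635.

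The other 5 of this role were not called with any treatment. Esrp1, an epithelial splicing regulator (chr4:11331933-11386783, minus strand), was at 85.7, 128, 106, 116 and 138 untreated, 66.9 to 141 (median 78.7) with beta-glucan, 22.8 to 353 (median 142) with anti-CD40 and 21.9, 67.6, 75.0, 99.6 and 145 with the combination. The treated ranges spanned the untreated one. Its log2 fold change was -0.34 ± 0.49, -0.02 ± 0.49 and -0.69 ± 0.51 (adjusted p = 0.772, 0.983 and 0.317). Grhl2, a grainyhead-like activator of junction genes, had few reads: 7.49, 38.8, 14.0, 6.87 and 10.0 untreated, 1.06 to 12.5 (median 6.78) with beta-glucan, 0 to 33.0 (median 12.4) with anti-CD40 and 4.50, 25, 0, 34.5 and 12.6 with the combination. With an SE of 0.91 to 0.95 on the log2 scale, its log2 estimates of -0.92, -0.66 and -0.53 could not be told from 0 at this depth. Ovol1, a zinc-finger repressor, was at 44.1, 47.5, 36.9, 16 and 22.5 untreated, 10.6 to 41.8 (median 22.4) and 0 to 179 (median 54.5) with the single agents and 23.8, 48.7, 64.2, 14.6 and 36.9 with the combination (log2 0.10 ± 0.87). Esrp2, which overlaps Nfatc3 on the other strand, and Ovol2 stood at log2 -1.61 ± 1.13 and 0.55 ± 1.02 with the combination.

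Of the 6 protease and inhibitor genes 2 fell and 1 rose with the combination, and none was called with a single agent by limma (Capn5 was at an unadjusted p under 0.05 with each). Capn5, a calpain, an intracellular calcium-dependent protease (chr7:98121559-98178274, minus strand), was at 543, 415, 565, 461 and 308 in untreated and 104, 137, 101, 116 and 72.7 in combination tumours, and at 213 to 414 (median 273) with beta-glucan and 234 to 417 (median 295) with anti-CD40. The combination tumours lay below every tumour of the other 3 groups. Capn5 fell 4.28-fold (log2 -2.10 ± 0.23, adjusted p = 2.72e-07), and was at -0.64 ± 0.22 and -0.58 ± 0.22 with the single agents (adjusted p = 0.0799 and 0.063). Prss12, the secreted protease neurotrypsin, fell 9.54-fold with the combination, from 246, 205, 173, 275 and 255 to 25.7, 47.5, 68.4, 12 and 5.82 (log2 -3.25 ± 0.48, adjusted p = 1.34e-05). Capn5 shares its locus with Omp and Gm16938 and Prss12 with 2 predicted genes.

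None of the 4 genes of the matriptase system was called lower with any treatment by limma. St14 encodes matriptase, a membrane serine protease of epithelium, Prss8 encodes prostasin, which acts with it, and Spint1 and Spint2 encode its Kunitz inhibitors. Spint1 (chr2:119237362-119249527, plus strand) rose with the combination from 236, 265, 262, 377 and 357 to 448, 378, 532, 454 and 450.0 (log2 0.61 ± 0.22, adjusted p = 0.0318), with every combination tumour above every untreated tumour by a narrow margin, 378 against 377. The call was lost without untreated 1, 2 or 3 or combination 1, 3 or 5 (adjusted p up to 0.0879) and with equal totals, where the estimate was 0.16 (adjusted p = 0.705), and with the acinar level in the model (adjusted p = 0.363). St14 was at 109, 111, 88.6, 49.3 and 68.9 untreated, 39.0 to 111 (median 51.7) and 45.1 to 116 (median 50.6) with the single agents and 22.5, 93.8, 36.7, 39.8 and 135 with the combination (log2 -0.61 ± 0.43, adjusted p = 0.289). Spint2 was at 32.4, 96.7, 77.2, 41.2 and 18.8 untreated, 15.9 to 51.8 (median 34.9) and 10.2 to 101 (median 34.4) with the single agents and 6.43, 99.3, 28.3, 21.3 and 32.0 with the combination (log2 -0.75 ± 0.62). Prss8, whose locus overlaps Kat8 on the other strand, stood at log2 1.69 ± 0.82 with anti-CD40 and 1.27 ± 0.86 with the combination (adjusted p = 0.161 and 0.27); its highest deposited value, 424, was in anti-CD40 tumour 6, where acinar genes took 22.5% of reads, and with equal totals anti-CD40 tumour 2 was highest.

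Of the 5 surface, secreted and trafficking genes 2 fell with the combination and 1 with anti-CD40. Tspan8, a tetraspanin of tumour cell surfaces (chr10:115816832-115849893, plus strand), was at 814, 1133, 772, 664 and 404 in untreated and 60.5, 30.5, 90.9, 37.2 and 5.82 in combination tumours, with 187 to 589 (median 455) in beta-glucan and 51.1 to 581 (median 472) in anti-CD40 tumours. Single-agent tumours overlapped the untreated range and combination tumours did not. Tspan8 fell 21.1-fold with the combination (log2 -4.40 ± 0.64, adjusted p = 1.99e-05). Muc1, a transmembrane mucin of ductal surfaces (chr3:89229057-89233381, plus strand), was at 5027, 4906, 3815, 4021 and 3576 untreated, 824 to 2181 (median 1463) with beta-glucan, 191 to 2629.7 (median 1118) with anti-CD40 and 74.0, 507, 691, 1029 and 733 with the combination. No treated tumour reached the untreated range. Muc1 fell under anti-CD40 (log2 -2.19 ± 0.58, adjusted p = 0.011) and the combination (-3.21 ± 0.60, adjusted p = 0.000332), and was at -1.60 ± 0.58 with beta-glucan (adjusted p = 0.111). Ap1m2, a subunit of the epithelial clathrin adaptor AP-1B, was at 37.4, 89.8, 57.9, 49.3 and 162 untreated, 18.9 to 107 (median 38.9) and 16.5 to 364 (median 101) with the single agents and 23.2, 61.5, 44.2, 232 and 149 with the combination (log2 0.10 ± 0.66, adjusted p = 0.922). Rab25, a GTPase of recycling endosomes, and Agr2, a disulfide isomerase of secretory cells, stood at -0.48 ± 0.67 and -0.18 ± 1.06.

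**Figure D4:**
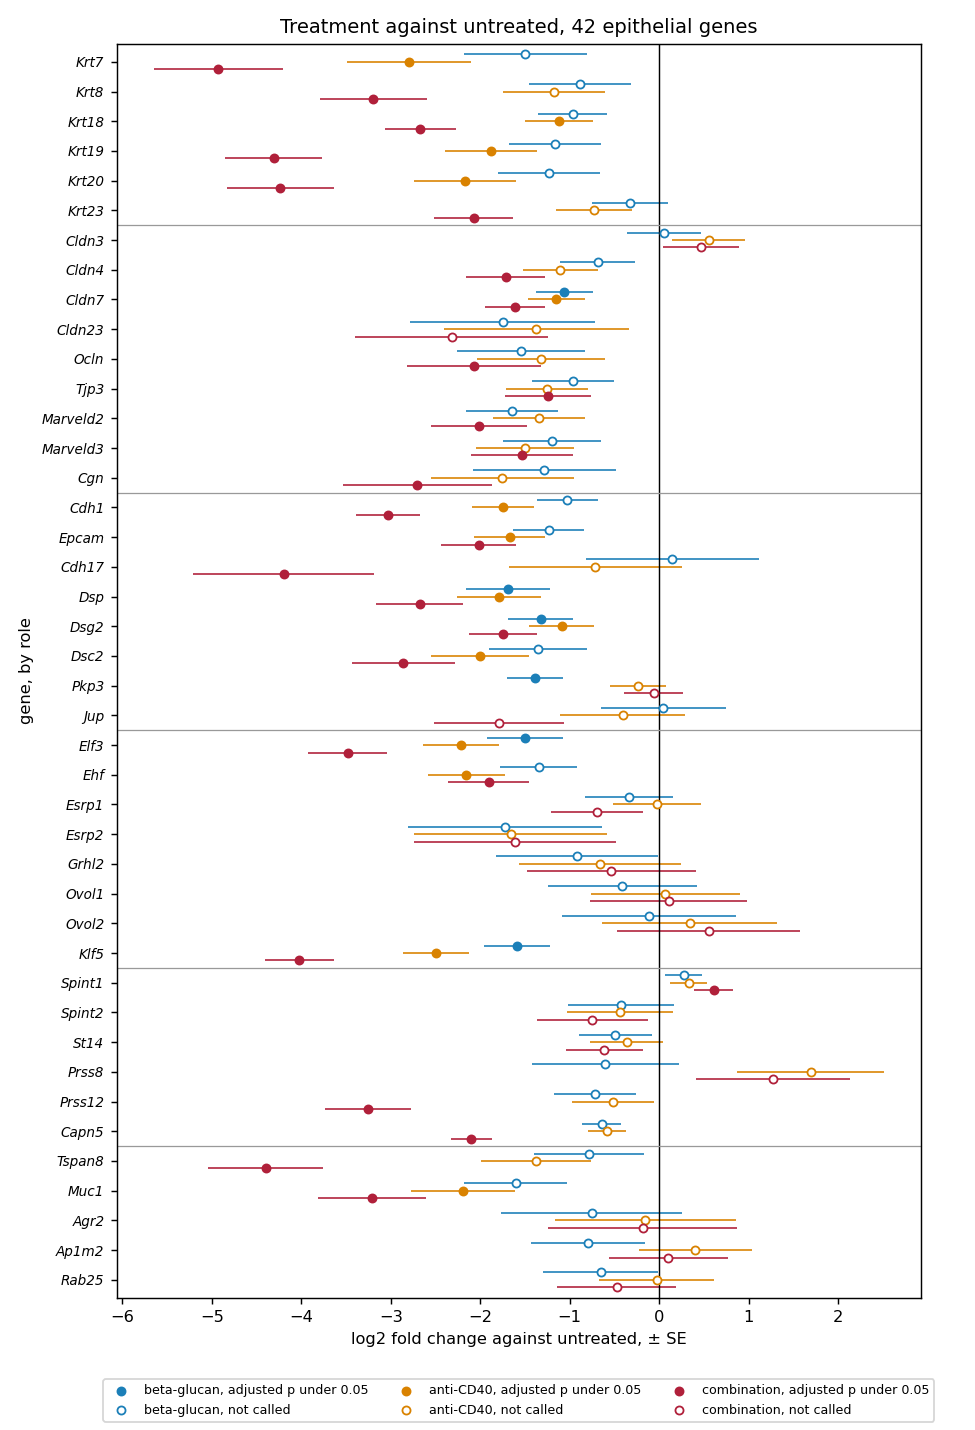
Log2 fold changes against untreated tumours, with bars of 1 SE, for the 42 genes in order of role; blue is beta-glucan, orange anti-CD40 and red the combination, and filled points have an adjusted p under 0.05. The red point of Krt7 lies farthest left, and filled points number 6, 14 and 27 for the 3 treatments.

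The direct comparisons asked where the combination differed from each agent alone. Against beta-glucan 13 of the 42 were lower (7.61% of all genes tested) and 1, Pkp3, was higher (6.49%), with a median log2 difference of -0.56 (all genes 0.01). All 6 keratins were among the 13, with Krt7 at -3.43 ± 0.69, Krt19 at -3.14 ± 0.51 and Krt20 at -3.00 ± 0.57, and so were Cdh1, Cdh17, Elf3, Klf5, Prss12, Capn5 and Tspan8 (-3.61 ± 0.61, adjusted p = 0.000865). Without the tumours of over 10% acinar reads the calls of Krt8 (adjusted p = 0.0959) and Krt23 (0.0813) were lost. In 12 of the 42 every combination tumour was below every beta-glucan tumour (5.8%), and in Pkp3 above (5.68%). Of tight junction genes limma called 0 of 9 there. Against anti-CD40 6 of the 42 were lower (0.826%) and 0 higher (0.658%, and 1.48% of all genes in either direction; 0 at an unadjusted p under 0.05, edgeR 0 and DESeq2 0), with a median of -0.67 (all genes 0.01). These were Tspan8 (-3.02 ± 0.61), Prss12 (-2.74 ± 0.46, adjusted p = 0.00544), Krt19 (-2.43 ± 0.51, adjusted p = 0.0308), Krt18 (-1.55 ± 0.38), Klf5 (-1.52 ± 0.37) and Capn5 (-1.52 ± 0.22, adjusted p = 0.00151). Capn5 was the 1 of the 42 without overlap between these groups (0.497%). The count of 6 became 0 with equal totals and 0 without the 5 tumours of over 10% acinar reads; it was 2 without anti-CD40 tumour 2, 3 or 4 or combination 5, 3 without combination 1, 2 or 4, 10 without anti-CD40 6 or combination 3, and 13 without anti-CD40 5. Prss12 and Capn5 kept their calls in each of the 11 fits without 1 tumour. Between the single agents 0 of the 42 were lower with anti-CD40 than with beta-glucan by limma (0.49%; 2 at an unadjusted p under 0.05, edgeR 0 and DESeq2 0) and Pkp3 was higher (1.61%, and 2.1% in either direction). Every anti-CD40 tumour lay above every beta-glucan tumour in 0 of the 42 (1.44%) and below in 0 (0.686%).

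The interaction asks, on the log2 scale, whether the combination's effect departs from what the agents' separate effects add up to. Limma called 0 of the 42 (0.021% of all genes), edgeR 0 and DESeq2 0, and 6 were at an unadjusted p under 0.05 (as were 1194 of all 14278 genes). The estimates of these 6 were -3.63 ± 1.37 for Cdh17, -2.23 ± 0.87 for Tspan8, -2.02 ± 0.65 for Prss12 and -0.87 ± 0.31 for Capn5, and 1.60 ± 0.61 for Ehf and 1.56 ± 0.44 for Pkp3, with adjusted p from 0.231 to 0.444. All 6 keratin estimates were below 0, from -1.26 to -0.58, and 8 of 9 tight junction estimates were above 0. None of these passed the adjustment, so neither an excess over the additive sum nor its absence was shown.

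How far a gene fell varied with its read level. Of 13 genes with an untreated mean below 100, 2 fell with the combination; of 17 with a mean of 100 to 1000, 12 fell and 1 rose; and all 12 with a mean of 1000 or more fell. The median log2 fold changes in these 3 classes were -0.53, -2.07 and -3.11. Across the 42 genes Spearman's rho between the untreated mean and the combination log2 fold change was -0.70, given as a description, since genes share the tumours and the depth of each library. The untreated mean is also the baseline of the fold change, so these measures are linked by construction. Shares of all genes called in the same classes were not computed. With anti-CD40 the 3 classes had 0, 3 and 11 falls, and with beta-glucan 0, 2 and 4. In data simulated for the combination comparison, 50 of 14278 genes were changed, over all levels. Of these, 60% were called when changed 4-fold and 0% when changed 2-fold. The real comparison called 34% of all genes, which makes the adjustment less strict, so these shares do not carry over to it. The low class holds Prss8, Ovol1, Ovol2, Grhl2, Esrp2, Cldn3, Cldn23, Agr2, Ap1m2, Spint2 and St14 along with Tjp3 and Marveld3, the 2 that fell. At 100 or above, Jup, Pkp3, Esrp1 and Rab25 were not called with the combination; the untreated means of Jup and Pkp3 were 738 and 511.

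**Figure D5:**
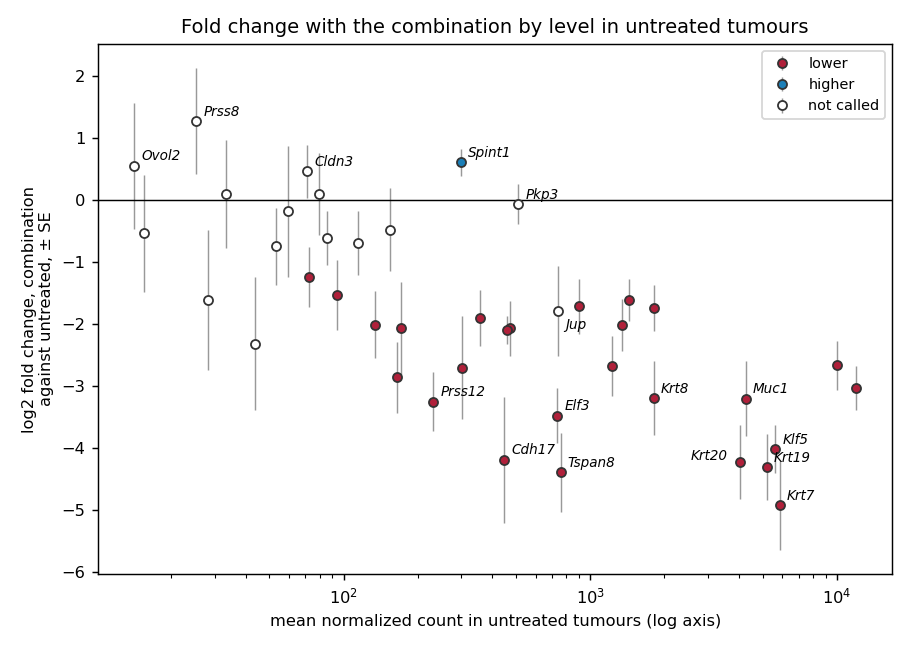
Each point is 1 of the 42 genes, with the mean normalized count of the 5 untreated tumours on a log axis against the log2 fold change with the combination and bars of 1 SE; red points fell, the blue point rose and white points were not called. The 12 genes at 1000 or above all lie below 0, and the points above 0 are at low levels except Spint1.

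The members also differed in how far they fell compared with Cdh1 in the same tumour, a comparison added after the data were seen. With the combination 5 of 41 fell more than Cdh1 (0.588% of all genes did): Krt7 (log2 difference -1.90 ± 0.50), Tspan8 (-1.37 ± 0.48), Krt19 (-1.28 ± 0.43), Krt20 (-1.20 ± 0.47) and Klf5 (-0.99 ± 0.40), with adjusted p of 0.000540 to 0.0185. Cdh17 (-1.16 ± 0.92), Elf3 (-0.45 ± 0.44), Prss12, Muc1 and Krt8 also had estimates below 0 and did not pass the test. In the other direction 23 of 41 passed the test for falling less than Cdh1 or rising, beside 92.2% of all genes. Cldn7 (1.42 ± 0.41), Dsg2 (1.29 ± 0.44) and Epcam (1.01 ± 0.44) both fell and fell less than Cdh1. With anti-CD40 Krt7 alone of the 41 fell more than Cdh1 (0.385% of all genes) and 14 fell less or rose (78.5%). With beta-glucan 0 fell more (0.007%) and 1, Spint1, passed the test for falling less or rising (25.9%). The mean of Spint1 was 299 untreated and 359 with beta-glucan.

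Tumours within a group were uneven in these genes. Untreated tumour 2 held the highest value of all 22 tumours for 13 of the 42 genes, and for 20 when values were rescaled to equal totals, a comparison added after the data were seen. Anti-CD40 tumour 6 held the highest deposited value for 9 genes (Ap1m2, Cldn3, Esrp1, Ovol1, Ovol2, Prss8, Rab25, Spint1 and Spint2) and, with equal totals, for 0. In this tumour 1 read is worth 2.72 normalized counts, and the 42 genes took 0.0494% of its reads, the lowest share of all 22, beside an acinar share of 22.5%. With equal totals it held the lowest value for 8 genes (1 as deposited). The lowest value of the 22 lay in combination tumour 1 for 11 genes, in combination 4 and combination 5 for 7 each and in anti-CD40 tumour 5 for 6; with equal totals these numbers were 8, 9, 5 and 5.

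A list of 48 other epithelial genes (junction, polarity, hemidesmosome and surface genes), of which 45 passed the filter, gave a set beside which to read the 42. Of the 45, 2 fell with beta-glucan, 23 with anti-CD40 and 33 with the combination, and 0, 2 and 4 rose; their median log2 fold changes were -0.76, -1.02 and -1.64. Itgb4, the hemidesmosome integrin chain, fell with each treatment (log2 -1.39 ± 0.33, -1.64 ± 0.33 and -2.93 ± 0.34), as did Patj, a tight junction polarity scaffold, with beta-glucan (-1.5 ± 0.39) and the anchoring protein Lad1 with anti-CD40 (-2.06 ± 0.44). Claudins differed in direction: Cldn10 rose with anti-CD40 (3.78 ± 0.95) and the combination (3.92 ± 1.0), Cldn15 rose with the combination (2.53 ± 0.60) and Ildr1, a tricellular junction receptor, with anti-CD40 (2.64 ± 0.78). When the mean log2 level of 16 genes of this list was added to the model, fewer members were called: 1 with beta-glucan (Pkp3, -1.91 ± 0.32), 2 with anti-CD40 (Klf5, -1.60 ± 0.39; Cldn3, 1.65 ± 0.42) and 4 with the combination (Klf5, -2.58 ± 0.51; Capn5, -1.66 ± 0.36; Cldn3, 2.24 ± 0.55; Ovol1, 3.87 ± 1.08). With the combination Klf5 and Capn5 were therefore lower, and Cldn3 and Ovol1 higher, than at the same level of these 16 genes. The higher direction of Cldn3 and Ovol1 depended on the model. With the acinar level as the covariate their combination estimates were -0.016 and -0.38, and with equal totals that of Ovol1 was -0.33. The level of the 16 genes itself moved with the groups. The shares of all genes called in the fit with that level are not given here. A drop in calls particular to these members therefore cannot be told from a drop over all genes.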

How the data were processed

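The 22 tumours were profiled by 3' mRNA sequencing (QuantSeq FWD, 100 ng of RNA from 5 µm sections of fixed tissue, per the labels' protocols), which reads transcript ends and not isoforms. The authors deposited normalized counts, a signal made with STAR and DESeq2 on mm10 per the submitters' processing notes; no source used states versions, counter, annotation or strandedness. Whole reads were recovered from the deposited values (100% of 395252 values within 0.001 reads). The main test was limma 3.58.1 (R 4.3.3; trend and robust) on log2(value + 1) over all 4 groups, for genes of at least 10 in at least 5 tumours, two-sided, with Benjamini-Hochberg adjustment over all 14278 genes in each contrast. Fold changes on this scale understate those of low genes. Alternatives were edgeR 4.0.16 and DESeq2 1.42.0 on recovered reads, other pseudocounts, no filter, equal totals, groups of a contrast alone, covariates, a replicate block and leaving out each tumour. The test was checked on simulated data. Genes given in full were 9 common markers and, in each role, those with the smallest and largest p for the combination and the smallest p for each single agent; others are named beside their role's count, and some were given in full after their values were seen. A gene of the other epithelial list that the rule would name is not reported here. The members and lists were chosen with earlier results of these data known. Gene positions are GENCODE M21 (GRCm38). No 2 tumours of a group agreed within sampling noise.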

Additional observations from a re-analysis of the deposited data

Results flagged for a closer look

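Of 88 sets of values (22 genes in each of 4 groups), 9 held 1 tumour far from the others of its group, where chance gives about 1 in 20. Untreated tumour 6 was the low value in 4 of them: Krt19 at 2918 (the other untreated tumours 5083 to 6328), Krt8 at 387 (1855 to 2692), Cdh1 at 7387 (11902 to 14139) and Elf3 at 296 (708 to 905). Acinar genes took 7.72% of reads in that tumour, the most among untreated tumours, and their part in these values was not tested. Anti-CD40 tumour 5 was low in Cdh1, at 967 against 3168 to 5880, and in Ovol1, at 0 against 41.9 to 179. Combination tumour 4 was high in Pkp3, at 1060.0 against 318 to 416. Beta-glucan tumour 5 was low in Tspan8, at 187 against 449 to 589, and combination tumour 1 in Muc1, at 74.0 against 507 to 1029.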

How the results depend on the processing

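The counts of members called changed under the alternatives as follows, and the cause was not tested. Shares of all genes called under each alternative are not given here. A change particular to these genes therefore cannot be told from a change over all genes. With beta-glucan the 6 calls became 1 with equal totals, 13 with DESeq2, 15 in a fit of the 2 groups alone and 1 with the level of 16 other epithelial genes as a covariate, and 2 to 8 without 1 tumour (2 without untreated 1, 2 or 5 or beta-glucan 3 or 5, 3 without untreated 3). With anti-CD40 the 14 became 8 with the acinar covariate, 2 with the epithelial covariate and 12 to 18 without 1 tumour. With the combination the 27 became 4 with the epithelial covariate and 23 to 29 without 1 tumour. Combination against beta-glucan went from 14 to 3 with the epithelial covariate and 14 to 16 without 1 tumour. Combination against anti-CD40 went from 6 to 0 with equal totals, 13 with DESeq2, 1 in a fit of the 2 groups alone, 1 with the epithelial covariate, 0 without the tumours of over 10% acinar reads and 2 to 13 without 1 tumour. Anti-CD40 against beta-glucan went from 1 to 0 with equal totals, edgeR, the acinar covariate or without the tumours of over 10% acinar reads, 2 with DESeq2 and 0 to 1 without 1 tumour. The count of 23 genes that fell less than Cdh1 or rose became 16 to 23 without 1 tumour. Equal totals moved the median log2 fold change of all genes by -0.56 with anti-CD40 and -0.44 with the combination.

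Direction changed for uncalled genes and for the call of Krt23 with the combination. With the epithelial covariate the log2 fold changes were, with beta-glucan, 0.42 for Krt8, 0.56 for Esrp1, 0.76 for Krt23, 1.40 for Ovol1, 0.65 for Spint2 and 0.14 for Tspan8. With anti-CD40 they were 0.50 for Krt8, 1.14 for Esrp1, 0.23 for Grhl2, 0.18 for St14, 0.67 for Krt23 and 0.95 for Spint2, and with the combination 1.18 for Esrp1, 0.90 for Grhl2, 0.27 for St14, 0.18 for Krt23 and 1.48 for Spint2. With the acinar covariate Cldn3 was at -0.14 with beta-glucan and -0.016 with the combination, Ovol1 at -0.42 and -0.38 with anti-CD40 and the combination, and Ap1m2 at -0.91 and -1.19. With equal totals Cldn3 was at -0.026 with anti-CD40, Ovol1 at -0.56 and -0.33 and Ap1m2 at -0.18 and -0.35 with anti-CD40 and the combination. For anti-CD40, Esrp1 was at 0.012 with a pseudocount of 8, 0.33 with edgeR and 0.36 with DESeq2, and Ovol1 at -0.083 with a pseudocount of 0.5; Pkp3 with the combination was at 0.0069 with DESeq2. Without the tumours of over 10% acinar reads Ovol1 was at -1.13 and Ap1m2 at -0.45 with anti-CD40, and Ap1m2 at -0.78 with the combination. Without 1 tumour the ranges were -0.064 to 0.14 for Cldn3 with beta-glucan, -0.35 to 0.43 for Esrp1 and -0.42 to 1.08 for Ovol1 with anti-CD40, and -1.02 to 0.27 for Grhl2, -0.36 to 0.14 for Pkp3, -0.13 to 0.39 for Ovol1 and -0.31 to 0.51 for Ap1m2 with the combination.

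Replicate numbers did not pair the tumours (30 same-numbered pairs, correlation of deviations -0.271 to 0.338, median 0.028). The tumour titled combination 5 carries another number in its data column, so its replicate number is uncertain. Its title number was used here. With the replicate number as a block 7, 15, 25, 15, 9, 1 and 0 members were called in the comparisons of beta-glucan, anti-CD40 and the combination with untreated, the combination with beta-glucan and with anti-CD40, anti-CD40 with beta-glucan, and the interaction, and Cldn3 with beta-glucan was at -0.0098.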
